A study of Mus musculus with 4 samples.

Results

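The visceral endoderm is the outer epithelium of the yolk sac, and it feeds the early mouse embryo by taking up maternal proteins, lipids and vitamins. A set of 8 genes of that tissue, Cubn, Amn, Lrp2, Dab2, S100g, Pdzk1, Rhox5 and Lgals2, was followed in embryos without nucleoredoxin. They were taken by gene name, with every non-control probe that carries one of these names, which gave 12 of 41174 gene probes, and 8 of 27670 gene or transcript names, on the array. The genes were chosen by their E9.5 ratios of mutant over wild type, which were already known to be low. Every E9.5 value below is therefore a description without a test, and so is every comparison of stages, while the E11.5 ratios were not used in the choice and were tested.

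Nucleoredoxin is a thioredoxin-related protein, encoded by Nxn and written NRX in the labels. Total RNA came from Nxn-null (NRX -/-) and wild-type (NRX +/+) embryos, both on the C57BL/6J strain, at E9.5 and at E11.5. Mutant and control RNA of one stage were labelled with Cy3 and Cy5 and hybridised together on Agilent arrays of the whole mouse genome, 2 arrays at each stage. The mutant was in Cy5 on replicate 1 and in Cy3 on replicate 2. Neither are the number and sex of the embryos given in the labels, nor separate extracts for the arrays of a stage, nor how much yolk sac, placenta or maternal tissue stayed with the embryos. All p-values below thus rest on array-to-array spread alone, which may be technical. Sample titles call the mutant channel KD, whereas the genotype field gives -/-.

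The targeted gene was checked first. Its 2 probes were lower in Nxn-null RNA on every array, with mean log2 ratios of mutant over wild type of -0.81 and -0.99 for the E9.5 arrays. The E11.5 arrays gave -1.16 and -1.33 as means of 2 arrays (limma fit on all 4 arrays, adjusted p = 1.67e-10 and 4.15e-11). Signal remained, at 39.8% of wild type for the lower of both probes at E11.5, and the sources used here do not place the probes relative to the deletion. Between 48.2% and 70.3% of gene spots per channel were well above background as Feature Extraction defines it, at most 7 spots per array were saturated and none of them belonged to the 8 genes. All arrays lay on 1 slide with 1 scan time, so no batch could be separated. Ratios of the replicates correlated with r = 0.43 at E9.5 and 0.24 at E11.5 across 24984 probes, as a description, since the arrays of a stage may share RNA extracts and probes are not independent. Precision is limited by having 2 arrays at a stage.

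Uptake by this epithelium rests on 2 large receptors. Cubilin (Cubn) has no membrane-spanning part and reaches the cell surface only with its small partner amnionless (Amn), and megalin (Lrp2) is a giant membrane receptor of the LDL receptor family that helps to internalise cubilin with its cargo. The adaptor Dab2 binds the tails of these receptors and links them to clathrin. S100g encodes calbindin-D9k, a calcium-binding protein of absorptive epithelia. Pdzk1 is a scaffold with PDZ domains that holds transporters at the brush border, and Lgals2 is a galectin that binds beta-galactosides. Rhox5 is a homeobox gene of the X-linked Rhox cluster and is expressed in extraembryonic tissues.

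Cubn, Amn, S100g and Lgals2 were each at least 2-fold lower in Nxn-null RNA at E9.5. So were Rhox5 and Pdzk1, which hold no motif match and are not printed. The genes were chosen by their E9.5 ratios, so this is no evidence of a shared pattern. Printed here are the promoters of the cubilin and amnionless pair and of S100g and Lgals2, the latter picked for their motif matches. Each is the 250 bases before the annotated start in RefSeq on GRCm38.p6, written 5′ to 3′ on the strand of the gene, with capitals marking a match to a searched motif. All 8 genes had an entry, and Dab2 and Pdzk1 had 2 windows each. S100g lies at chrX:162964600-162964849 on the minus strand, Cubn at chr2:13491877-13492126 on the minus strand, Amn at chr12:111270846-111271095 on the plus strand and Lgals2 at chr15:78855530-78855779 on the minus strand.
S100g promoter: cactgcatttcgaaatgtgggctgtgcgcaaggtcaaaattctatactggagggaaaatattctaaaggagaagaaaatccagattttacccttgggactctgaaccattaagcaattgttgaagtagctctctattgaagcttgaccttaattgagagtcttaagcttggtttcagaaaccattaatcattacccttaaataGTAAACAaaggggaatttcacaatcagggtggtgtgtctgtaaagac
Cubn promoter: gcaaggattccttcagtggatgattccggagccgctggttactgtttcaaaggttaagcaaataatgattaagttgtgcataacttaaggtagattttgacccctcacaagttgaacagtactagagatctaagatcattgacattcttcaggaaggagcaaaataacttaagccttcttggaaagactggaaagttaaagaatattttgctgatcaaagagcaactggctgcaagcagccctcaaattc
Amn promoter: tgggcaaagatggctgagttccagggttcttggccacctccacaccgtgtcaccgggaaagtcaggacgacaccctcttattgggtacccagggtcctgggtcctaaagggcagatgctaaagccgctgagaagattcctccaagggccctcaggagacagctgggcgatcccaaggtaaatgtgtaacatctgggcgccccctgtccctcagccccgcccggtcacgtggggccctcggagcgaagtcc
Lgals2 promoter: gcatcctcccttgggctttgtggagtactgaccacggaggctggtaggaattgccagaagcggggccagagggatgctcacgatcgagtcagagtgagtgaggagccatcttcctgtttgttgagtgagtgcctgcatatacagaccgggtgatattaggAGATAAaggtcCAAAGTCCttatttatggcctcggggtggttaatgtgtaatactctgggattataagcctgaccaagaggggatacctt
The motifs, searched on both strands, were CAAAGTCC for HNF4, AGATAA or TGATAA for GATA factors and GTAAACA for FOXA factors, all transcription factors of endoderm. They were chosen with the E9.5 values and the sequences in view. Lgals2 held an HNF4 match and a GATA match, which begin 79 and 90 bases before the start and do not overlap. S100g held a FOXA match that begins 47 bases before the start. One window of Dab2, not printed, held a GATA match at 179 bases. Over 32851 RefSeq windows of the same length, the HNF4 letters were found in 1.2%, the GATA letters in 16.6% and the FOXA letters in 3.17%. The other windows of the 8 genes held none of these letters, which says only that these letters are not in these windows.

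Cubilin and amnionless, which work as 1 receptor, were both far lower in Nxn-null RNA at E9.5. The Cubn probe read 12.03 and 12.71 in wild-type RNA on replicates 1 and 2, and 8.09 and 8.14 in Nxn-null RNA (normalised level, log2 intensity). Both wild-type channels lay far above both mutant channels, and the wild-type channels differed more between arrays than the mutant channels did. The log2 ratio of Cubn was -3.94 and -4.57, with a mean of -4.25 ± 0.45 (SD, n = 2 arrays), which is 5.24% of wild type or 19.1-fold lower, and it was -4.95 with Feature Extraction's processed signals. Amn read 11.45 and 11.53 in wild-type RNA against 8.42 and 8.42 in Nxn-null RNA, again without overlap. Its mean log2 ratio was -3.07 ± 0.05 (SD, n = 2 arrays), an 8.38-fold lower level with close agreement between the dye orientations. In these whole-embryo RNAs, fewer cells of a type and less RNA per cell cannot be told apart.

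Megalin, the receptor that works with cubilin, was lower in the same RNA by a much smaller amount. The name Lrp2 is carried by 4 probes, and 2 of them passed the filter: one genotype or both had to be well above background on each array of a stage. The brighter one read 10.74 and 11.02 in wild-type and 10.32 and 10.16 in Nxn-null RNA at E9.5, a mean log2 ratio of -0.64 ± 0.31 (SD, n = 2 arrays) or 64.4% of wild type. For the other kept probe the levels were 9.55 and 9.60 against 9.03 and 9.11, a mean log2 ratio of -0.51 ± 0.02 (SD, n = 2 arrays) or 70.2% of wild type. The genotypes did not overlap on either probe, and both probes pointed the same way. The remaining 2 Lrp2 probes were well above background in no wild-type channel, and in 1 mutant channel for 1 of them. Their mean E9.5 ratios of 0.05 and -0.08 carry no level of the gene.

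Dab2, the adaptor, also differed less than the cubilin and amnionless pair. Its bright probe read 10.80 and 10.68 in wild-type and 9.86 and 10.002 in Nxn-null RNA at E9.5, a mean log2 ratio of -0.81 ± 0.19 (SD, n = 2 arrays) or 57.2% of wild type. A dimmer probe, well above background in 2 wild-type channels but only 1 mutant channel at E9.5, gave ratios of -0.49 and -0.30. Both probes had lower mutant channels on both arrays, with no overlap between genotypes. One further probe, which the files name D630005B22Rik and the RefSeq names list as an older name of Dab2, was well above background in no channel and was not counted among the 12.

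The absorptive genes S100g, Pdzk1 and Lgals2 were also lower at E9.5, Lgals2 by 5.00-fold, and the other 2 with mutant signal close to background. S100g read 11.60 and 11.83 in wild-type and 6.55 and 7.42 in Nxn-null RNA, and only 1 of the 2 mutant channels was well above background. Its log2 ratio was -5.05 and -4.41, with a mean of -4.73 ± 0.45 (SD, n = 2 arrays), or 26.6-fold lower on the measured values. With Feature Extraction's processed signals the ratio was -6.70, so the size for this dim mutant signal depends on the background handling and normalization used. Pdzk1 read 9.91 and 10.15 in wild-type and 7.29 and 7.53 in Nxn-null RNA, where 1 of 2 channels was well above background. Both of its arrays gave -2.62, or 16.3% of wild type, and the processed signals gave -3.87. For Lgals2 the levels were 11.08 and 11.14 against 8.90 and 8.67, giving a mean log2 ratio of -2.32 ± 0.20 (SD, n = 2 arrays). In all 3 genes the wild-type channels stood clear of the mutant channels on both arrays.

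The homeobox gene Rhox5 was lower in the mutant at E9.5 as well. Its probe read 13.35 and 13.25 in wild-type and 10.27 and 10.32 in Nxn-null RNA, a mean log2 ratio of -3.01 ± 0.10 (SD, n = 2 arrays) or 12.4% of wild type. The mutant channels stayed well above background on both arrays, so this ratio is measured on both sides.

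**Figure D1:**
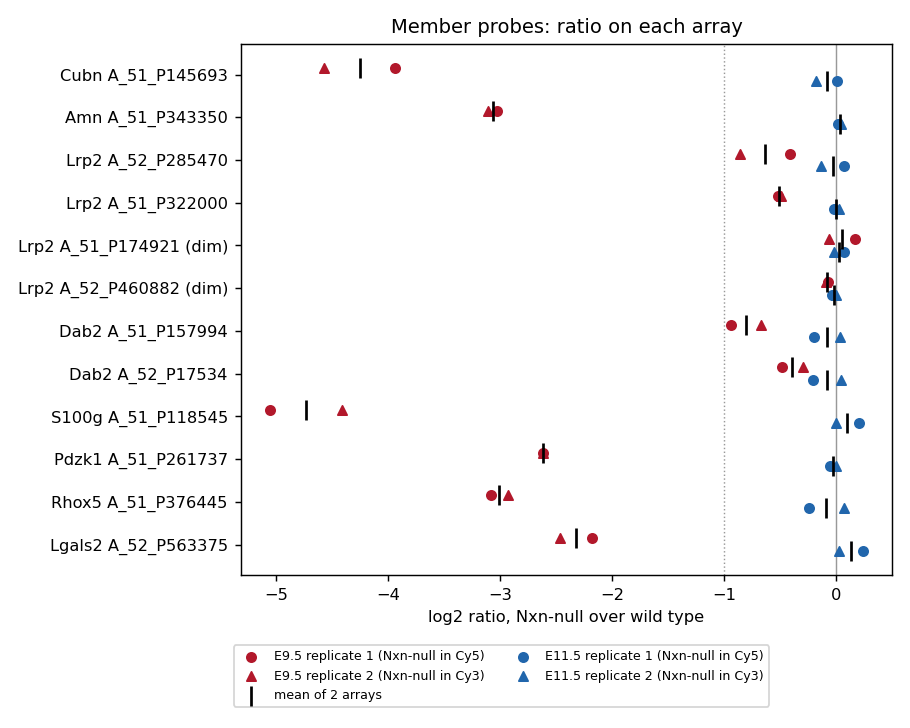
Log2 ratio of Nxn-null over wild type for the 12 probes, on each of the 2 E9.5 arrays (red) and 2 E11.5 arrays (blue), with black bars at the mean of 2 arrays and a dotted line at 2-fold lower. The probes of Cubn, Amn, S100g, Pdzk1, Rhox5 and Lgals2 lie beyond the dotted line at E9.5. The kept probes of Lrp2 and Dab2 lie between it and 0 there, and the dim Lrp2 probes lie near 0. At E11.5 all probes lie near 0. Probes marked dim did not pass the background filter.

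Of the 12 probes, 10 passed the background filter. At E9.5, 6 of these 10, one for each of 6 genes, were at least 2-fold lower in Nxn-null RNA, where 0.616% of all kept probes were. None was at least 2-fold higher, where 0.0801% of all kept probes were. All 10 kept probes were lower on both arrays, as were 26.5% of all kept probes. These shares describe genes that were picked for their E9.5 values. The same holds for the lack of overlap between genotypes given above, whose share over all probes was not counted.

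At E11.5 the same genes showed no difference between genotypes that was larger than the spread between arrays. Ratios of the 10 kept probes ran from -0.09 to 0.13 on the log2 scale. None of the 10 had an adjusted p under 0.05 in limma, and 0 had an unadjusted p under 0.05, whereas 8.48% of all kept probes passed the adjusted threshold (5.31% lower and 3.17% higher) and 19.2% the unadjusted one. The 95% intervals of the 10 ratios lay between -0.24 and 0.29, the upper end being that of S100g. S100g and the dim Dab2 probe passed the filter through wild-type RNA at E9.5 alone. At E11.5 S100g was well above background in no channel and the dim Dab2 probe in 1, so their ratios carry no weight. In 7 of the 10 the arrays had opposite signs. None of the 10 was at least 2-fold apart, where 0.208% of all kept probes were.

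For the receptor pair the E11.5 levels overlapped or nearly touched. Cubn read 8.02 and 8.002 in wild-type and 8.03 and 7.82 in Nxn-null RNA, a mean log2 ratio of -0.09 with SE 0.07 (limma, adjusted p = 0.597, 95% interval -0.24 to 0.07). Amn read 7.49 and 7.49 against 7.51 and 7.53, a mean log2 ratio of 0.03 (limma, adjusted p = 0.862, 95% interval -0.10 to 0.16), with 1 wild-type channel not well above background. The kept Lrp2 probes read 9.23 and 9.43 against 9.31 and 9.29, and 8.20 and 8.03 against 8.18 and 8.05, with mean log2 ratios of -0.03 and 0.00 (limma, adjusted p = 0.852 and 0.995). Cubn and Lrp2 overlapped between genotypes, and the Amn channels differed by at most 0.04 within an array.

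Dab2 and Rhox5 remained well above background in both genotypes at E11.5. The bright Dab2 probe read 10.60 and 10.50 in wild-type and 10.40 and 10.53 in Nxn-null RNA, a mean log2 ratio of -0.08 (limma, adjusted p = 0.533). On the dim Dab2 probe the mutant was not well above background on either array. Rhox5 read 9.92 and 9.83 against 9.68 and 9.90, a mean log2 ratio of -0.09 (limma, adjusted p = 0.521, 95% interval -0.22 to 0.05). Both genes had arrays of opposite sign and overlapping groups.

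Among the absorptive genes, Lgals2 came nearest to a difference at E11.5. It read 7.40 and 7.51 in wild-type and 7.64 and 7.54 in Nxn-null RNA, a mean log2 ratio of 0.13 with SE 0.06 (limma, unadjusted p = 0.0503, adjusted p = 0.261). Mutant channels were higher on both arrays without reaching the threshold, and 1 wild-type channel was not well above background. Pdzk1 read 7.62 and 7.51 against 7.57 and 7.51, a mean log2 ratio of -0.03 (limma, adjusted p = 0.878). S100g was well above background in no channel of either genotype at E11.5, so no fold is given.

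S100g and Rhox5 lie on the X chromosome, and the E11.5 RNAs differed in sex-linked transcripts. Xist, which coats and silences an X chromosome, was well above background in both mutant channels and in neither wild-type channel at E11.5. The Y-linked genes Eif2s3y, Ddx3y and Kdm5d showed the opposite, with 2 of 2 wild-type and 0 of 2 mutant channels well above background, and all 4 genes passed the test (limma, adjusted p between 3.40e-22 and 3.17e-10). On the E9.5 arrays every channel showed Xist well above background and none showed these 3 Y-linked genes so, and the mean Xist log2 ratio was -0.43. The fourth measured Y-linked gene, Zfy1, had an E11.5 log2 ratio of -0.01 (limma, adjusted p = 0.965) and was well above background in both mutant channels. The part of sex in the E11.5 values of S100g and Rhox5 was not tested.

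**Figure D2:**
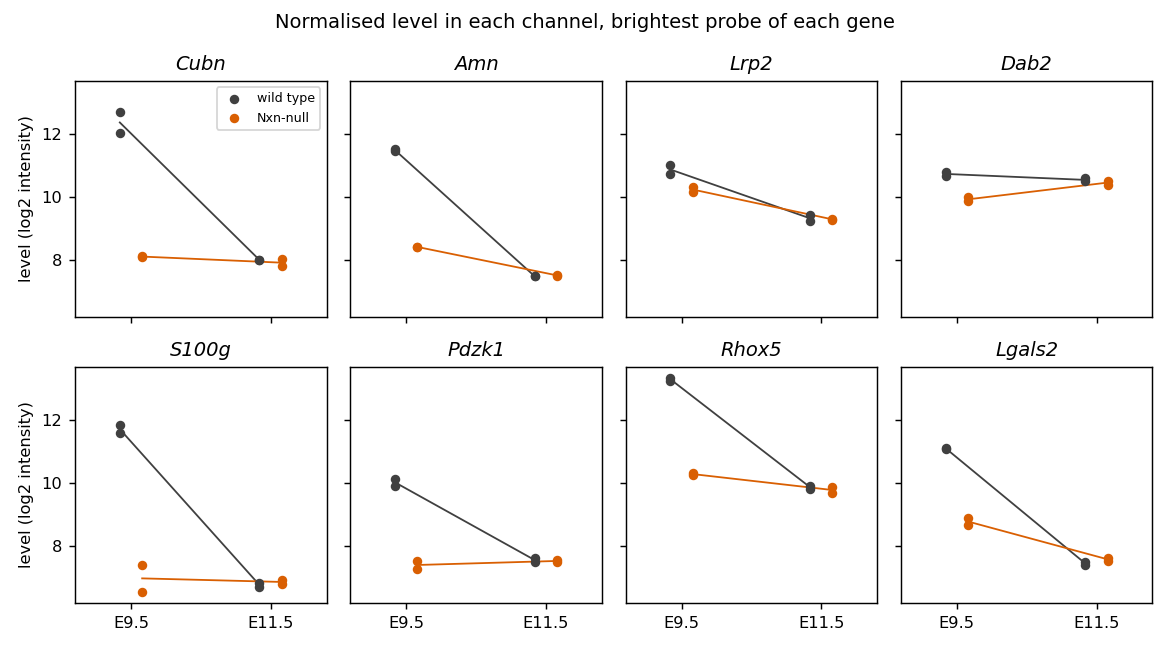
Normalised level (log2 intensity) of the brightest kept probe of each gene in each of the 8 channels, wild type in grey and Nxn-null in orange, with lines joining the mean of 2 channels at E9.5 and E11.5. In wild-type RNA 7 of the 8 panels slope down by more than 2-fold, with log2 differences of E11.5 minus E9.5 from -4.94 for S100g to -1.55 for Lrp2, and Dab2 moves by -0.19. S100g at E11.5 is not well above background in any channel.

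Across the stages, most of the 8 genes were much higher at E9.5 than at E11.5 in wild-type RNA. In wild-type RNA the E11.5 level lay below the E9.5 level by 20.6-fold for Cubn, 16.0-fold for Amn, 12.6-fold for Lgals2, 10.7-fold for Rhox5 and 5.52-fold for Pdzk1. At E11.5 only 1 of 2 wild-type channels was well above background for Amn, Lgals2 and Pdzk1, so their folds rest on a dim level. S100g was at least 30.8-fold lower, a bound because it was not well above background at E11.5. The 2 Lrp2 probes were lower by 2.93-fold and 2.75-fold, and the bright Dab2 probe moved by -0.19 on the log2 scale. Of the 10 kept probes, 8 were at least 2-fold lower at E11.5 than at E9.5 in wild-type RNA, where 1.33% of all kept probes were. In wild-type RNA Xist was well above background at E9.5 alone, and Eif2s3y, Ddx3y and Kdm5d at E11.5 alone. Stage and sex thus cannot be told apart in these wild-type differences, and the part of sex was not tested.

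Mutant RNA differed less between the stages for most of these genes. Between E9.5 and E11.5 the Nxn-null level moved by -0.19 for Cubn, 0.13 for Pdzk1, -0.51 for Rhox5, -0.90 for Amn and -1.20 for Lgals2 on the log2 scale. Only Lgals2 among the 10 kept probes was at least 2-fold lower at the later stage in Nxn-null RNA, where 0.716% of all kept probes were. Dab2 ran the other way, with a bright probe 0.53 higher at E11.5. Set against wild-type RNA at E11.5, the E9.5 mutant level differed by 0.11 for Cubn, -0.15 for Pdzk1 and 0.42 for Rhox5, and it was higher by 0.93 for Amn and by 1.33 for Lgals2. Both Lrp2 probes were higher by 0.91 and 0.95, and the bright Dab2 probe differed by -0.62. S100g was not well above background in E11.5 wild-type RNA, so it gave no such difference. The stages lay on different arrays, and these levels rest on the scaling between arrays. Wild-type RNA at E11.5 also differed from the E9.5 RNAs in sex-linked transcripts.

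**Figure D3:**
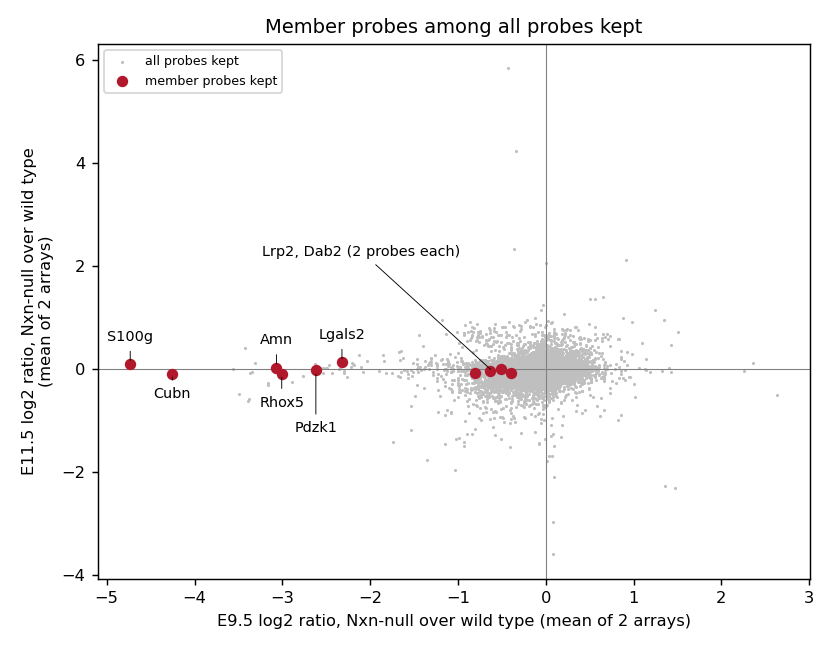
Mean log2 ratio of Nxn-null over wild type at E9.5 (horizontal axis) and at E11.5 (vertical axis) for 24984 kept probes (grey) and the 10 kept probes of the 8 genes (red). S100g and Cubn are the leftmost points (ranks 1 and 2 from the lowest at E9.5), and all 10 red points lie between -0.09 and 0.13 on the vertical axis.

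Ligands of the receptors were measured next, since cubilin and megalin carry apolipoproteins, vitamin carriers, transferrin and albumin. For the lists that follow, the brightest probe stood for each gene, and 0.752% of 17156 genes were at least 2-fold lower and 0.0874% at least 2-fold higher at E9.5. Of 20 listed ligands 19 were measured, and 7 were at least 2-fold lower and 0 higher at E9.5. Among the low ones Apob, Rbp4, Apoa1 and Ttr, named for this overlap, also stand on the list of visceral endoderm markers below. The counts of both lists thus share these genes. The median of the list was -0.31, and that of all genes -0.00. Apob, the structural protein of lipoproteins that yolk sac endoderm secretes, had log2 ratios of -3.79 and -3.00 at E9.5, or 10.5-fold lower. Apob was lower at E11.5 too, by a log2 ratio of -0.61 (limma, adjusted p = 3.20e-06). In the same test 5 ligands in all were lower at E11.5, among them Alb (-0.48), Trf (-0.36) and Apoa1 (-0.26), beside 5.2% of all genes lower and 3.4% higher.

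The shared machinery of clathrin uptake showed no such pattern at E9.5. All 28 listed genes for adaptors, clathrin, early endosomes and recycling were measured, and 0 of 28 were at least 2-fold apart, with a median log2 ratio of 0.02. Myo6, the motor that moves endocytic vesicles along actin, was the lowest at -0.63 on the log2 scale. At E11.5, 1 of the 28 was lower and 2 were higher, beside 5.2% of all genes lower and 3.4% higher, and nothing particular to the machinery is read from that count. The clathrin heavy chain Cltc was the lower gene (-0.29, limma, adjusted p = 0.00527). The adaptor subunit Ap2s1 (0.28, limma, adjusted p = 0.0365) and Gipc1, a PDZ protein that binds the megalin tail (0.40, limma, adjusted p = 0.000394), were the higher ones.

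Genes of the brush border, of transport and of the lysosome each included 1 or 2 low members at E9.5. Among 17 measured microvillus genes the median E9.5 log2 ratio was -0.19 and 1 was at least 2-fold lower, Vil1, which encodes villin of the microvillus core, at -2.30. Among 14 measured transporters the median was -0.38 and 2 were at least 2-fold lower, with the zinc importer Slc39a4 lowest at -2.20. In the lysosome list 15 genes were measured with a median of -0.15, and Ctsh, a cathepsin, was the 1 gene at least 2-fold lower, at -2.30. At E11.5 these genes gave no difference beyond array spread for Vil1, Slc39a4 and Ctsh (limma, adjusted p = 0.554, 0.422 and 0.848). The brush border protein gene Pdzk1ip1 (-0.60) and the metal importer Slc39a8 (-0.45) were lower at E11.5 (limma, adjusted p = 1.83e-06 and 6.24e-05).

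Some listed markers of the tissue were lower in the same RNA, and others were not. Of 26 visceral and yolk sac endoderm markers 24 were measured, that is, passed the background filter, and all 24 were well above background in wild-type RNA on both E9.5 arrays. Several of them, such as Afp, also stand on the liver or gut list, and Apob, Rbp4, Apoa1 and Ttr on the ligand list. At E9.5, 9 of the 24 were at least 2-fold lower in Nxn-null RNA and 0 higher, 19 were lower on both arrays, and the median log2 ratio was -0.53. Their summed linear level was 166059 and 167164 in wild-type against 30913 and 27091 in Nxn-null RNA at E9.5, and 88466 and 98705 against 91265 and 90413 at E11.5. Most of that sum is Afp, and without it the E9.5 sums were 59621 and 59320 against 18558 and 18451. Afp, the fetal serum protein made by yolk sac endoderm and liver, was 10.4-fold lower at E9.5, and the apolipoprotein gene Apoc2 8.94-fold. The transcription factor genes Hnf4a and Gata4 of the same list, chosen for naming after their values were seen, had E9.5 log2 ratios of 0.05 and 0.12. At E11.5 Apob, Apoc2 (-0.31) and Apoa1 were lower and Cited1, a transcriptional cofactor gene, was higher (0.26) in the limma test. The part of the amount of this tissue in the ratios of the 8 genes was not tested.

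**Figure D4:**
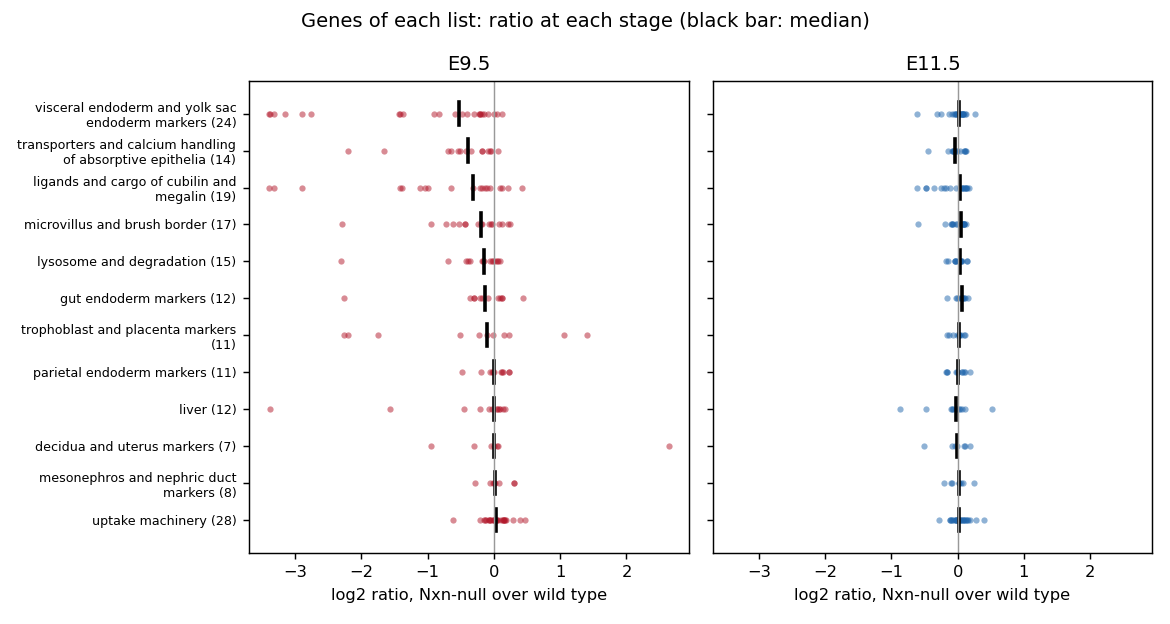
Log2 ratio of Nxn-null over wild type at E9.5 (left) and E11.5 (right) for the measured genes of 12 lists, each point a gene and each black bar the list's median, with the number of genes measured in brackets. Visceral and yolk sac endoderm markers have the lowest E9.5 median, -0.53, and the E11.5 medians run from -0.04 to 0.06.

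Other tissues that express some of the 8 genes were examined in the same way. Megalin, cubilin and Dab2 are also made by nephric epithelium, whose 8 measured markers had a median E9.5 log2 ratio of 0.01 with 0 at least 2-fold apart and Wt1 lowest at -0.29. At E11.5 the nephric genes Osr1 (-0.21) and Lhx1 (0.24) passed the limma test in opposite directions (adjusted p = 0.0468 and 0.0197). The summed level of the nephric markers was 6023 and 6758 in wild-type against 6415 and 6407 in Nxn-null RNA at E9.5. Among 12 measured liver markers 2 were at least 2-fold lower at E9.5, Afp and the prothrombin gene F2, with a median of 0.00, and summed levels of 146681 and 147718 against 51569 and 50907. Without Afp the liver sums were 40244 and 39874 against 39213 and 42267, and most of that is Dlk1. Its E9.5 level was 15.15 in wild-type and 15.20 in Nxn-null RNA (log2 intensity), so these sums say little about the other liver markers. Albumin, the defining liver product, had an E9.5 log2 ratio of 0.10. At E11.5 Alb and the fetuin gene Ahsg (-0.86) were lower and Serpina1b was higher (0.51) in the limma test.

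Gut and extraembryonic markers were counted as well. Of 12 measured gut endoderm markers 1 was at least 2-fold lower at E9.5, the homeobox gene Cdx2 at -2.27, with a median of -0.13 over the list and summed levels of 40264 and 41846 against 35052 and 33569. Parietal endoderm markers, which mark the other epithelium of the yolk sac, had a median of -0.00 over 11 measured genes and 0 at least 2-fold apart, Krt19 lowest at -0.48, and summed levels of 30766 and 27661 against 29465 and 29919. Of 11 measured trophoblast markers 3 were at least 2-fold lower, Cdx2, Phlda2 and Esx1, and 2 were higher, Prl3d1 and Prl3d2, near-identical genes whose probes may read each other. Their summed levels were 6322 and 7645 against 4553 and 4321. Decidua markers had a median of 0.01 over 7 measured genes, with 0 at least 2-fold lower and 1 higher, Prl8a2. It was well above background in Nxn-null but in no wild-type channel at E9.5, with log2 ratios of 2.35 and 2.92. At E11.5 its log2 ratio was -0.50 (limma, adjusted p = 2.03e-05), with no mutant and 1 wild-type channel well above background. Hoxa11 was the lowest decidua marker at -0.95. The summed levels of the list were 7614 and 8844 against 8507 and 8277, most of it Wfdc2 (log2 ratio 0.04). F2, Phlda2, Esx1, Prl3d1 and Prl3d2 were named after their values were seen, because their counts were small. Dlk1 and Wfdc2 were also named after their values were seen, because they make up most of their sums. The part of placental or maternal tissue in these RNAs was not tested.

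The E11.5 calls on listed genes depended on the fit and on the normalization. Of 17 listed genes past the threshold outside the sex-linked list, 1 remained past it without the dye term, Ahsg (limma, adjusted p = 0.0457). With median centring in place of loess 4 remained, and with the Feature Extraction processed signals 0. With a normexp offset of 10, with no filter on dim probes, and with trend and robust moderation, 12 remained in each case. Fits on 3 arrays cannot hold the dye term, and with it dropped 0 remained without either E11.5 array and 2 without either E9.5 array. In all these settings the 17 ratios kept their sign.

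The 8 genes also differed among themselves in profile. Over the 8 channels of the 4 arrays, the Pearson correlation of each probe with the mean profile of the 10 kept probes was 0.998 for Rhox5, 0.996 for Amn, 0.991 for Cubn, 0.989 for S100g, 0.979 for Pdzk1 and 0.975 for Lgals2. The Lrp2 probes gave 0.887 and 0.867, and the Dab2 probes 0.722 and 0.480. Among 234 named probes outside the 8 genes with a range of at least 2 log2 units, those most like the mean profile were Vil1 (0.998 and 0.993 for its 2 probes), Slc39a4 (0.994), Trap1a (0.993), Phlda2 (0.992 and 0.988), Mtarc1 (0.990) and Slc13a4 (0.989). Their E9.5 log2 ratios ran from -1.65 for the first Phlda2 probe to -2.57 for Trap1a, and their E11.5 log2 ratios from -0.08 to 0.11. These correlations describe 8 channels that share arrays. Each of the 10 kept probes is itself part of the mean profile, which raises its own correlation, unlike those of the outside probes. The genes were also chosen by E9.5 ratios that shape this profile, so the high values are no evidence of a shared pattern.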

How the data were processed

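Per the file headers, the deposited scanner files hold spot intensity in each dye with local background and flags, written by Agilent Feature Extraction (9.1.3.1 in the headers, 9.5.3.1 per the submitters' processing notes). The authors' deposited value table is on the log10 scale. Its values equal log10 of the processed red over green signal, turned to mutant over control, within 0.0001 for at least 99.995% of 40929 probes with a single spot, and its column medians run from -0.0347 to 0.0408. No genome build or probe sequence is given in the sources used here.

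Mean intensities were corrected by normexp (offset 50) and by loess on each array, control spots having weight 0 (limma 3.58.1 and version 1.17.8 of data.table, R 4.3.3). Spots of a probe were averaged, 302 probes with an outlier mark were left out, and 24984 probes passed the background filter. Levels are single channels after Aquantile scaling. A bound sets the bright group's mean against the higher of the dim probe's own signal and the lowest signal well above background on the array. The E11.5 ratio was tested with limma on all 4 arrays (a term for each stage and for dye, 1 residual and 18.0 prior degrees of freedom). Its p-values were adjusted by Benjamini-Hochberg over 24984 probes at 0.05, and its SE and 95% intervals are moderated. On simulated data the fit recovered the planted changes, but the share of false calls was above the adjusted threshold on average and varied widely between runs, so calls near the threshold are weak evidence.

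The 8 genes and the 13 gene lists were chosen with earlier results of these data known. Named genes were the 8, Nxn, each list's lowest E9.5 ratio and up to 4 extremes of E11.5 past the threshold, and the 8 probes of most similar profile. Symbols and promoters came from RefSeq (22951 probes by accession, 6659 by current and 3109 by older symbol, 8455 with the name in the file). Figures used matplotlib 3.10.9 (Python 3.11.15). Alternatives were the offset, processed signals, median centring, the filters, the brightest probe, the dye term, the moderation and the arrays used.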

Additional observations from a re-analysis of the deposited data

Results flagged for a closer look

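Amn and Lgals2 had both E9.5 arrays below 0 and both E11.5 arrays above 0 in the log2 ratio of Nxn-null over wild type. The E11.5 log2 ratio exceeded the E9.5 one by 3.0975 for Amn and by 2.45 for Lgals2. This difference was not tested, because the E9.5 arrays entered the choice of the genes. The E11.5 ratios themselves, 0.03 for Amn and 0.13 for Lgals2, did not pass the threshold (limma, adjusted p = 0.862 and 0.261), and that of Amn was -0.01 with median centring, so no rise at E11.5 is shown.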

How the results depend on the processing

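No probe of the 8 genes was beyond array spread at E11.5 in any setting tried, with limma adjusted p from 0.200 upward and at most 1 probe at an unadjusted p under 0.05. This carries no weight where few or no probes at all were called. The count over all probes moved, from 2118 to 1320 with a normexp offset of 10, 299 with median centring, 50 without the dye term, 216 from the E11.5 arrays alone with no dye term, and 0 with the Feature Extraction processed signals (4442 at an unadjusted p under 0.05). Leaving out each array in turn, which also forced the dye term out, gave 17 to 216, and the lone array of a stage was assumed to vary like the others. Why these counts differ was not tested beyond the changed fits themselves. No other filter, probe choice or moderation moved that count by over 1.5 times (1555 to 1971). At E9.5 6 probes were at least 2-fold lower in every setting but 2, with 7 from the processed signals, where the dim Dab2 probe stood at -1.34, and 4 of 7 tested when both channels had to be above background. With the processed signals the E9.5 ratio went to -6.70 for S100g, -4.95 for Cubn and -3.87 for Pdzk1, and Lgals2 at E11.5 went to 0.79. The bright Lrp2 probe ran from -0.86 to -0.41 and the bright Dab2 probe from -0.94 to -0.67 with 1 E9.5 array left out. The cause of these shifts was not tested. Each array pairs both genotypes, so every ratio of mutant over wild type is already a paired comparison. No further pairing between arrays was possible because the labels number no replicates. Of the list medians, 231 values stayed within the spread of the arrays and 55 moved past it.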

Other observations

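The scanned spots were also read before any normalization, where differences between the dyes are not removed. Net intensity above the local background for S100g was 2202 and 4590 in wild-type RNA at E9.5 and 70.5 and 44.3 in Nxn-null RNA on the same arrays. At E11.5 it lay between 18.9 and 26.6 in all channels. Cubn gave 2930 and 9122 in wild-type against 358.0 and 121.6 in Nxn-null RNA at E9.5, and Rhox5 gave 7427 and 14620 against 2029 and 832.0. In each of these 3 genes the wild-type spots exceeded the mutant spots in either dye at E9.5. This did not hold for all 8 genes. On E9.5 replicate 1 the bright Lrp2 probe gave 1144 in wild-type against 1971 in Nxn-null RNA. The other kept Lrp2 probe gave 461.8 against 678.2 there, and the bright Dab2 probe 1201 against 1397. On replicate 2 the wild-type spots of these Lrp2 and Dab2 probes were the higher ones.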
